A study of Homo sapiens with 12 samples.

Results

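The 36 genes described here encode the enzymes that make sterols and fatty acids, the SREBP system that regulates them, and a small set of targets of the liver X receptors (LXR). They were picked by name from the 58735 genes of the deposited table, and 0 of the 36 names matched more than 1 gene identifier. Of the 36 genes, 19 belong to sterol synthesis and transport, 5 regulate or constitute the SREBPs, 9 belong to fatty acid synthesis and 3 are LXR targets.

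RNA was sequenced from NCM460, a cell line that the labels describe as normal human colonic epithelium. Wild-type cells were kept in medium, in TNF-α, or in TNF-α with 5-OH-TMT, a trimethylated serotonin that the labels call bufotenidine, and the last group received TNF-α with HTRA2, a mitochondrial serine protease, knocked down by siRNA. There were 3 libraries in each of the 4 groups, 12 in all. The labels give no dose or duration for TNF-α or 5-OH-TMT, and do not say which siRNA was used or whether the 3 libraries of a group came from separate cultures, so p-values measure a spread between libraries that may be technical. The labels name no siRNA for the TNF-α libraries, whereas the study's text names a control siRNA for its knockdown comparison. If the TNF-α cells were not transfected, transfection and loss of HTRA2 cannot be told apart.

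Cells control their own supply of sterols and fatty acids through the SREBPs, transcription factors that are made as precursors in the endoplasmic reticulum. SCAP carries the precursors to the Golgi apparatus for cleavage when membranes are poor in sterols, whereas the INSIG proteins hold SCAP back when sterols are plentiful. SREBP2, encoded by SREBF2, acts mainly on cholesterol genes, and the SREBP1c form of SREBF1 acts mainly on fatty acid genes. The LXRs respond to oxysterols and raise genes that export cholesterol, and they also raise SREBF1 and SCD.

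Depth ran from 31008429 to 37624399 reads assigned to genes in a library. HTRA2 had FPKM values of 14.02, 17.2 and 13.3 in medium, of 15.4, 13.96 and 14.2 with TNF-α, of 15.4, 15.5 and 14.8 with 5-OH-TMT, and of 7.44, 7.18 and 7.22 in the knockdown. It fell by 0.98 on the log2 scale in the knockdown against TNF-α (limma, adjusted p = 2.8e-05). Of 12 epithelial markers, EPCAM, CDH1, KRT8, KRT18 and KRT19 had a mean FPKM of at least 1, whereas the other 7, among them the intestinal genes CDX2, CDX1, VIL1, CDH17 and KRT20, lay under 0.1. CDX2 was at 0 in every library. Of 12 markers of other cell types, 1 had a mean FPKM of at least 1, COL1A1, and the sum of the 12 was 1.23 to 1.75 FPKM with TNF-α and 3.27 to 4.12 in the knockdown. CD3E, DCN and ADIPOQ were at 0 in every library. In library 2 of the knockdown, 2.95% of reads came from the mitochondrial genome, against 3.69% to 4.68% in the other 11 libraries, and the main counts that involve the knockdown are given without it as well.

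Promoters of 31 of the 36 genes were found in the RefSeq table (GRCh38.p14), as the 250 bases before the transcription start. ABCG1, SQLE, FASN, FDFT1 and ACAT2 were not matched. The stretches shown belong to regulators and targets on which the results turn, or hold the rarest motifs found. The sterol regulatory element in its textbook form, spelled by the capitals of the SREBF2 stretch and searched on both strands like every motif here, stood in 1 of the 31 promoters, that of SREBF2, and in 0.0439% of the promoters of 27305 genes. The looser form TCACNCCAC, which overlaps it, was again found in SREBF2 alone, against 1.09% of all. In the SREBF2 stretch, at chr22:41832931-41833020 on the plus strand, the capitals mark this element, which begins 134 bases before the start.
SREBF2: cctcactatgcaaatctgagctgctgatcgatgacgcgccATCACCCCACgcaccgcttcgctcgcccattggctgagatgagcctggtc
In the next 3 stretches the capitals mark CCAAT, read by NF-Y, and GGGCGG, read by SP1, on either strand. They end where the gene begins in the deposited table, and lie at chr17:17837003-17837202 on the minus strand, chr7:155297628-155297775 on the plus strand and chr10:100346983-100347123 on the plus strand. SREBF1 held 3 matches of GGGCGG, INSIG1 held 3 of GGGCGG and 1 of CCAAT, and SCD held 2 of CCAAT.
SREBF1: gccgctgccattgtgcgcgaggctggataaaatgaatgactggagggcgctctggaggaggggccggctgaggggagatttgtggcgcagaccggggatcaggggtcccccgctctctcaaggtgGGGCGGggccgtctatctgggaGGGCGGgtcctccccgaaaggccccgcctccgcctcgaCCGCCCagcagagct
INSIG1: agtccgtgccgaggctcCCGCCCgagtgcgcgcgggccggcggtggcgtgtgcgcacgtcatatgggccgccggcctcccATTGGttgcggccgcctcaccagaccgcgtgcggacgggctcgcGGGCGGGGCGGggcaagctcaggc
SCD: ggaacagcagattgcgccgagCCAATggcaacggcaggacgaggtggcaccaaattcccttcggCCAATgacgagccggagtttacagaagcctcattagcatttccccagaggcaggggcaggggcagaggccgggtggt
The LXR element in its strict form, AGGTCA repeated after a gap of 4 bases, was in 0 of the 31 promoters and in 0.0183% of all. A looser form chosen after the strict one had been searched, AGGTNA and GGTCA with 5 bases between them, was in 1 of the 31, that of ABCA1, and in 0.103% of all. It begins 69 bases before the RefSeq start, at chr9:104928202-104928231 on the minus strand with its flanks, inside the first exon of the deposited gene model. The match, in capitals, is on the strand opposite to the gene.
ABCA1: caggcttTGACCGATAGTAACCTctgcgct
Over the whole 250 bases, CCAAT was in 21 of the 31 promoters (67.7%), against 41.1% of the 10548 promoters that belonged to a gene tested here. GGGCGG was in 30 of 31 (96.8%), all but NSDHL, against 73.8%. The E-box CACGTG was in 4, those of ABCA1, INSIG1, SC5D and SCAP (12.9%), against 10.9%. A match describes letters in a window and is no evidence of binding.

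All 36 genes were expressed. Over the 12 libraries, SCD, the desaturase that makes monounsaturated fatty acids, had the highest mean level at an FPKM of 95.7, followed by FASN (75.8), ACLY (42.6) and FDFT1 (34.7). At the low end stood FADS2 (0.650), CYP51A1 (0.836), ABCA1 (0.847) and ABCG1 (0.954), the 4 genes with a mean FPKM under 1. The smallest count behind any value was 65 reads, for ABCG1 in library 2 of TNF-α. FPKM is scaled for gene length, so these levels can be set beside each other roughly, except where exons are shared with other genes. CYP51A1 shares 83.2% of its exon bases, so its place among the lowest is uncertain.

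In all, 5 pairs of groups were compared by limma on log2(FPKM + 0.1). The fit took in 18079 genes whose mean FPKM reached 0.1, all 36 among them, and a gene was called at an adjusted p under 0.05. Fewer cells expressing a gene and less of its RNA per cell cannot be told apart in such bulk libraries. With the knockdown against TNF-α, 18 of the 36 genes rose (50.0%) and 0 fell, beside 9.35% of all genes tested that rose and 8.08% that fell. Leaving out library 2 of the knockdown gave 17 and 0, beside 10.2% and 8.21%. The median log2 fold change of the 36 was 0.31, beside -0.0034 over all genes tested. With 5-OH-TMT against TNF-α, 2 of 36 rose, SREBF1 and SCD, and 0 fell, beside 0.0332% of all genes that rose and 0.00553% that fell. The median of the 36 was 0.20, beside 0 over all genes. Without an adjustment, 18 of 36 had a p under 0.05 and were higher with 5-OH-TMT, and 1 was lower, beside 9.6% and 10.5% of all genes. With TNF-α against medium, 1 of 36 rose and 2 fell, beside 3.22% and 0.885% of all genes, and the median was -0.14. These comparisons share the TNF-α libraries, so their values are set side by side and no agreement between them is computed.

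The groups were also read without the model, by whether all 3 libraries of one lay beyond all 3 of the other. In the knockdown against TNF-α, 20 of 36 genes were higher without overlap and 1 was lower, ELOVL6, beside 17.5% and 16.4% of all genes. Leaving out library 2 of the knockdown, so that 2 libraries stood against 3, gave 24 and 1, beside 25.0% and 23.6%. With 5-OH-TMT against TNF-α, 20 of 36 were higher and 2 were lower, ME1 and ELOVL6, beside 16.3% and 15.5%. With TNF-α against medium, 2 were higher and 9 lower, beside 11.1% and 8.74%. With 3 libraries a side, an exact permutation test (two-sided) cannot give a p below 0.1.

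**Figure D1:**
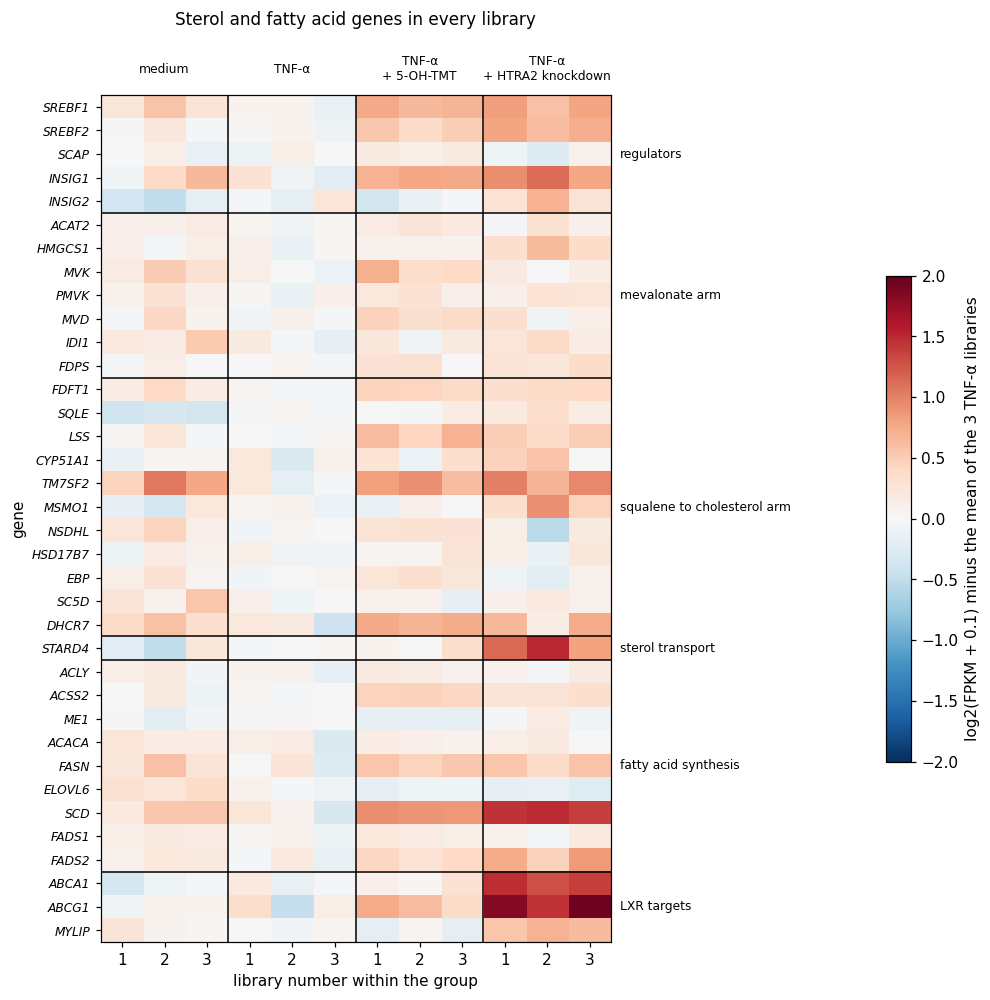
Level of the 36 genes in each of the 12 libraries, as log2(FPKM + 0.1) minus the mean of the 3 TNF-α libraries, with libraries in columns by group and genes in rows by role. SREBF1, SREBF2, INSIG1, SCD and ABCG1 are red in the 6 libraries with 5-OH-TMT or the knockdown. Within their rows, STARD4, ABCA1, ABCG1 and MYLIP are redder in the 3 knockdown libraries than in any other library, as are SCD, SREBF2 and HMGCS1 among others.

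SREBF1 and SREBF2, the genes of the SREBPs themselves, were raised in the knockdown. SREBF1 (ENSG00000072310) had FPKM values of 26.6, 33.4 and 27.0 in medium, 23.7, 23.7 and 20.48 with TNF-α, 38.3, 35.5 and 36.2 with 5-OH-TMT, and 40.5, 33.9 and 39.1 in the knockdown. Each library with 5-OH-TMT or the knockdown lay above every library of medium and TNF-α. SREBF1 rose by a log2 fold change of 0.70 with 5-OH-TMT against TNF-α (standard error 0.10, adjusted p = 0.0435) and by 0.74 in the knockdown (standard error 0.10, adjusted p = 0.00043). The 5-OH-TMT call for SREBF1 held in 7 of 11 other settings that keep all libraries and in 2 of 12 fits that leave out 1 library, with a fold change of 0.66 to 0.70 in the 11 settings. The knockdown call held in every one of these 23 fits.

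SREBF2 (ENSG00000198911) had FPKM values of 22.8, 27.6 and 23.0 in medium, 24.1, 24.8 and 21.9 with TNF-α, 34.3, 30.4 and 33.1 with 5-OH-TMT, and 40.6, 36.02 and 38.9 in the knockdown. The knockdown libraries were the highest and did not overlap with any other group. SREBF2 rose by 0.70 in the knockdown against TNF-α (standard error 0.09, adjusted p = 0.00023). Its adjusted p was 0.0731 with 5-OH-TMT against TNF-α, with a 95% interval of the log2 difference from 0.27 to 0.66.

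INSIG1, which retains SCAP and is itself induced by SREBPs, rose in the knockdown as well. Its FPKM was 5.05, 6.97 and 8.35 in medium, 6.48, 5.04 and 4.50 with TNF-α, 8.57, 9.04 and 9.02 with 5-OH-TMT, and 10.1, 11.62 and 9.07 in the knockdown. The medium libraries spread over most of the range between the others. INSIG1 (ENSG00000186480) rose by 0.94 in the knockdown against TNF-α (standard error 0.17, adjusted p = 0.0028), and its adjusted p was 0.0922 with 5-OH-TMT against TNF-α (interval 0.36 to 1.11).

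INSIG2, the second SCAP retention factor, had FPKM values of 5.76, 5.34 and 6.60 in medium, 7.34, 6.59 and 8.96 with TNF-α, 5.85, 6.85 and 7.42 with 5-OH-TMT, and 9.17, 12.2 and 9.09 in the knockdown. The knockdown libraries were the highest, but the adjusted p against TNF-α was 0.0764. SCAP, the sterol-sensing escort, ran from 16.9 to 22.9 FPKM over the 12 libraries and was called in no comparison. Thus 3 of the 5 regulators rose in the knockdown against TNF-α.

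**Figure D2:**
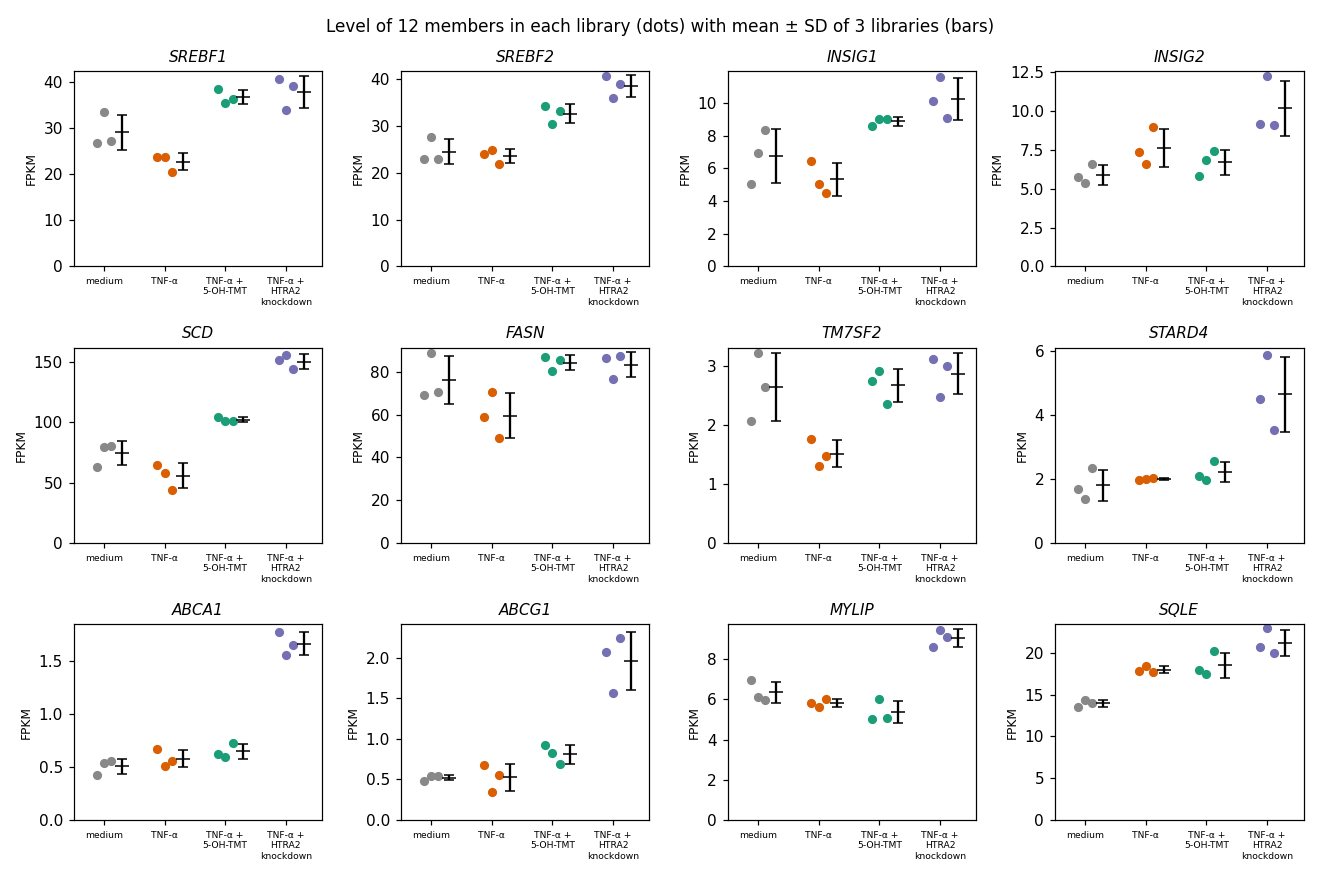
FPKM of 12 of the genes in each library (dots) with the mean ± SD of the 3 libraries of a group (bars), on axes that start at 0. SCD lies at 144 to 156 in the knockdown and at 44.2 to 65.0 with TNF-α, and ABCA1 and ABCG1 lie above 1.5 in the 3 knockdown libraries and below 1 in the other 9.

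The mevalonate arm runs from acetyl-CoA to farnesyl pyrophosphate, and 2 of its 7 genes rose in the knockdown. HMGCS1, the HMG-CoA synthase, had FPKM values of 5.40, 4.93 and 5.42 in medium, 5.38, 4.55 and 5.14 with TNF-α, 5.32, 5.30 and 5.29 with 5-OH-TMT, and 6.32, 7.80 and 6.52 in the knockdown. Medium, TNF-α and 5-OH-TMT overlapped, and the knockdown lay above all 3. HMGCS1 rose by 0.44 in the knockdown against TNF-α (standard error 0.09, adjusted p = 0.0068). FDPS, the farnesyl pyrophosphate synthase, had 12.05, 12.5 and 11.9 with TNF-α and 14.7, 14.2 and 15.6 in the knockdown, and rose by 0.29 (standard error 0.08, adjusted p = 0.0358). This call was lost in 3 of 11 settings and 5 of 12 fits without 1 library.

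MVK, the mevalonate kinase, had FPKM values of 6.23, 5.79 and 5.29 with TNF-α, 9.44, 7.40 and 7.65 with 5-OH-TMT, and 6.51, 5.76 and 6.43 in the knockdown. Of these groups 5-OH-TMT was the highest without overlap, although the adjusted p against TNF-α was 0.0922. The medium libraries stood at 6.47, 8.20 and 7.11 and overlapped with those given 5-OH-TMT. The kinase PMVK ran from 14.3 to 19.1 FPKM over the 12 libraries, the decarboxylase MVD from 7.58 to 11.1 and the isomerase IDI1 from 1.98 to 3.23. ACAT2, a thiolase that joins acetyl-CoA units, ran from 8.92 to 11.5. None of these 4 was called in any of the 5 comparisons.

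Between squalene and cholesterol, 5 of 11 genes rose in the knockdown. FDFT1, the squalene synthase, had FPKM values of 32.0, 38.1 and 31.9 in medium, 29.7, 28.5 and 28.3 with TNF-α, 39.3, 38.7 and 37.7 with 5-OH-TMT, and 36.4, 37.4 and 38.1 in the knockdown. The TNF-α libraries were the lowest of the 12. FDFT1 rose by 0.37 in the knockdown against TNF-α (standard error 0.07, adjusted p = 0.0034), and its adjusted p with 5-OH-TMT against TNF-α was 0.0531 (interval 0.27 to 0.57).

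SQLE, the squalene epoxidase and a control step of the pathway, was the 1 gene of the 36 that rose with TNF-α. Its FPKM was 13.6, 14.4 and 13.9 in medium, 17.8, 18.4 and 17.8 with TNF-α, 17.9, 17.4 and 20.2 with 5-OH-TMT, and 20.6, 22.9 and 19.99 in the knockdown. Every library with TNF-α lay above every medium library. SQLE rose by 0.36 with TNF-α against medium (standard error 0.07, adjusted p = 0.0122), and by a further 0.23 in the knockdown against TNF-α (standard error 0.07, adjusted p = 0.0456), a call that held in 4 of 11 settings and 3 of 12 fits without 1 library.

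LSS, the lanosterol synthase, had FPKM values of 4.51, 5.30 and 4.34 in medium, 4.40, 4.39 and 4.53 with TNF-α, 6.89, 6.02 and 7.24 with 5-OH-TMT, and 6.32, 5.83 and 6.25 in the knockdown. Medium and TNF-α overlapped, and the libraries with 5-OH-TMT or the knockdown lay above both. LSS rose by 0.46 in the knockdown against TNF-α (standard error 0.09, adjusted p = 0.0055), and its adjusted p with 5-OH-TMT against TNF-α was 0.0531 (interval 0.38 to 0.79).

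TM7SF2, a sterol C14 reductase, fell with TNF-α and rose in the knockdown. Its FPKM was 2.07, 3.22 and 2.65 in medium, 1.76, 1.31 and 1.48 with TNF-α, 2.74, 2.92 and 2.37 with 5-OH-TMT, and 3.13, 2.48 and 3.01 in the knockdown. The TNF-α libraries were the lowest of the 12, and the other groups overlapped. TM7SF2 fell by 0.75 with TNF-α against medium (standard error 0.16, adjusted p = 0.0210) and rose by 0.88 in the knockdown against TNF-α (standard error 0.16, adjusted p = 0.0031). The fall with TNF-α was lost in 2 of 11 settings and 4 of 12 fits without 1 library, those without library 2 or 3 of medium or of TNF-α.

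MSMO1, the methylsterol monooxygenase, had FPKM values of 8.71, 7.75 and 11.4 in medium, 10.1, 10.3 and 8.97 with TNF-α, 8.87, 10.47 and 9.69 with 5-OH-TMT, and 12.2, 18.5 and 13.4 in the knockdown. It rose by 0.56 in the knockdown against TNF-α (standard error 0.16, adjusted p = 0.0304). Library 2 of the knockdown was the highest of the 12. The call was lost without it, without any one of the 3 TNF-α libraries, and in 3 of 11 settings. NSDHL and DHCR7, later enzymes of the arm, were at 11.04 and 12.1 FPKM in that library but at 17.6 and 18.2 (NSDHL) and 17.3 and 18.3 (DHCR7) in the other 2 knockdown libraries. DHCR7, the reductase of the last step to cholesterol, had 12.6, 12.5 and 8.19 in the TNF-α libraries and 18.4, 17.5 and 18.3 in those given 5-OH-TMT (adjusted p = 0.0962). Its medium libraries lay between, at 14.3, 16.4 and 13.8. The other enzymes of the arm were not called in the knockdown against TNF-α. Over the 12 libraries, the demethylase CYP51A1 ran from 0.591 to 1.16 FPKM, HSD17B7, a ketosteroid reductase, from 2.68 to 3.55, and the desaturase SC5D from 2.46 to 4.13.

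STARD4 carries cholesterol between membranes and belongs to the SREBP targets. Its FPKM was 1.69, 1.39 and 2.34 in medium, 1.96, 1.998 and 2.02 with TNF-α, 2.10, 1.99 and 2.57 with 5-OH-TMT, and 4.50, 5.87 and 3.54 in the knockdown. The knockdown libraries stood apart from the other 9, which overlapped. STARD4 rose by 1.15 in the knockdown against TNF-α (standard error 0.20, adjusted p = 0.0019), a 2.22-fold change. Without library 2 of the knockdown its log2 fold change was 0.97.

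Of the 9 fatty acid genes, 4 rose in the knockdown against TNF-α. SCD (ENSG00000099194) had FPKM values of 63.2, 79.9 and 80.2 in medium, 65.0, 58.4 and 44.2 with TNF-α, 105, 101 and 101 with 5-OH-TMT, and 151, 156 and 144 in the knockdown. The 3 upper levels were distinct, since every 5-OH-TMT library lay above all of medium and TNF-α and every knockdown library lay above all of 5-OH-TMT. SCD rose by 0.89 with 5-OH-TMT against TNF-α (standard error 0.13, adjusted p = 0.0435) and by 1.44 in the knockdown (standard error 0.13, adjusted p = 2.7e-05), a 2.72-fold change. With 5-OH-TMT the call held in 6 of 11 settings and 4 of 12 fits without 1 library, at a fold change of 0.82 to 0.89 in the 11 settings, and the knockdown call held in all 23.

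FASN, the fatty acid synthase, had FPKM values of 69.2, 88.9 and 70.3 in medium, 59.0, 70.3 and 49.2 with TNF-α, 86.8, 80.4 and 85.4 with 5-OH-TMT, and 86.2, 76.4 and 87.2 in the knockdown. The 5-OH-TMT and knockdown libraries overlapped, and all lay above TNF-α. FASN rose by 0.50 in the knockdown against TNF-α (standard error 0.13, adjusted p = 0.0176), a call lost in 1 of 11 settings, the fit to 2 groups, and without TNF-α library 3 or library 1 or 3 of the knockdown. Its adjusted p with 5-OH-TMT against TNF-α was 0.0962 (interval 0.24 to 0.79).

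ACSS2, which makes acetyl-CoA from acetate, had FPKM values of 21.3, 23.8 and 19.6 in medium, 22.0, 20.4 and 21.0 with TNF-α, 28.9, 29.1 and 28.0 with 5-OH-TMT, and 25.3, 25.2 and 26.4 in the knockdown. Among these groups 5-OH-TMT was the highest, with no overlap. ACSS2 rose by 0.28 in the knockdown against TNF-α (standard error 0.07, adjusted p = 0.0189), a call lost in 3 of 12 fits without 1 library, those without TNF-α library 2 or 3 or library 3 of the knockdown. Its adjusted p with 5-OH-TMT against TNF-α was 0.0531 (interval 0.29 to 0.59). FADS2, the delta-6 desaturase, rose in the knockdown by 0.69 from 0.477, 0.582 and 0.435 FPKM with TNF-α to 0.90, 0.719 and 0.973 (standard error 0.16, adjusted p = 0.0116). The change was 0.31 with a pseudocount of 1, and the call was lost in the fit to 2 groups. FADS2 shares 4.89% of its exon bases with FADS1, on the opposite strand, and FEN1.

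ELOVL6, the elongase of saturated and monounsaturated C16 fatty acids, went the other way. It had FPKM values of 7.64, 7.30 and 7.93 in medium, 6.51, 6.09 and 5.89 with TNF-α, 5.47, 5.82 and 5.82 with 5-OH-TMT, and 5.46, 5.55 and 5.18 in the knockdown. Medium was the highest group and did not overlap with the others. ELOVL6 fell by 0.30 with TNF-α against medium (standard error 0.07, adjusted p = 0.0310), and its adjusted p was 0.0880 in the knockdown against TNF-α. The fall with TNF-α was lost in 3 of 11 settings and 4 of 12 fits without 1 library, those without library 1 or 3 of medium or library 2 or 3 of TNF-α.

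ACLY, the ATP citrate lyase, ran from 35.97 to 45.9 FPKM over the 12 libraries, the carboxylase ACACA from 5.56 to 8.08, malic enzyme ME1 from 12.3 to 16.2 and the desaturase FADS1 from 8.60 to 10.7. These 4 were called in none of the 5 comparisons. TNF-α library 3 held the lowest value of the 12 for ACLY, ACACA, FASN, SCD, FADS1 and FADS2. The same library was also the lowest for SREBF1, SREBF2, INSIG1, MVK, IDI1, FDFT1 and DHCR7. Without that library the count of called genes among the 36 was 0 in 5-OH-TMT against TNF-α, beside 0.00553% of all genes higher and 0% lower. It was 1 in TNF-α against medium, beside 2.55% and 0.542%.

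The 3 LXR targets all rose in the knockdown. ABCA1, which exports cholesterol to apolipoproteins, had FPKM values of 0.427, 0.535 and 0.556 in medium, 0.668, 0.509 and 0.555 with TNF-α, 0.624, 0.590 and 0.722 with 5-OH-TMT, and 1.77, 1.55 and 1.65 in the knockdown. Behind these values stood 168 to 295 reads in the first 9 libraries and 636 to 726 in the knockdown. ABCA1 rose by 1.38 in the knockdown against TNF-α (standard error 0.15, adjusted p = 0.00011), a 2.61-fold change.

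ABCG1, which exports cholesterol to HDL, had FPKM values of 0.486, 0.540 and 0.540 in medium, 0.677, 0.341 and 0.556 with TNF-α, 0.919, 0.828 and 0.686 with 5-OH-TMT, and 2.07, 1.56 and 2.24 in the knockdown. The knockdown libraries again stood above the other 9. Every 5-OH-TMT library also lay above every library of medium and TNF-α, although ABCG1 was called in neither of these comparisons. ABCG1 rose by 1.74 in the knockdown against TNF-α (standard error 0.21, adjusted p = 0.00021), a 3.35-fold change. MYLIP, the ubiquitin ligase that degrades lipoprotein receptors, had 6.96, 6.12 and 5.97 in medium, 5.82, 5.62 and 6.02 with TNF-α, 5.04, 6.02 and 5.06 with 5-OH-TMT, and 8.60, 9.47 and 9.11 in the knockdown. It rose by 0.63 against TNF-α (standard error 0.09, adjusted p = 0.00057). These 3 calls held in all 12 fits without 1 library and in every setting that kept the gene, 11 for MYLIP and 10 for the others, which a filter at a mean FPKM of 1 removes. The size depended on the pseudocount, since a pseudocount of 1 in place of 0.1 gave log2 fold changes of 0.75 for ABCA1 and 0.96 for ABCG1, and 0.01 gave 1.52 and 1.92.

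By the study's own cutoff for a differentially expressed gene (2-fold, unadjusted p up to 0.05), 4 of the 36 genes passed in the knockdown against TNF-α, namely STARD4, SCD, ABCA1 and ABCG1. All 4 were higher, beside 3.08% of all genes higher and 1.14% lower. Without library 2 of the knockdown STARD4 dropped below the 2-fold limit and 3 passed, beside 3.32% and 1.34%. Of the 36, 0 passed in 5-OH-TMT against TNF-α, beside 0.686% of all genes higher and 0.813% lower, or in TNF-α against medium, beside 1.76% and 0.968%.

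**Figure D3:**
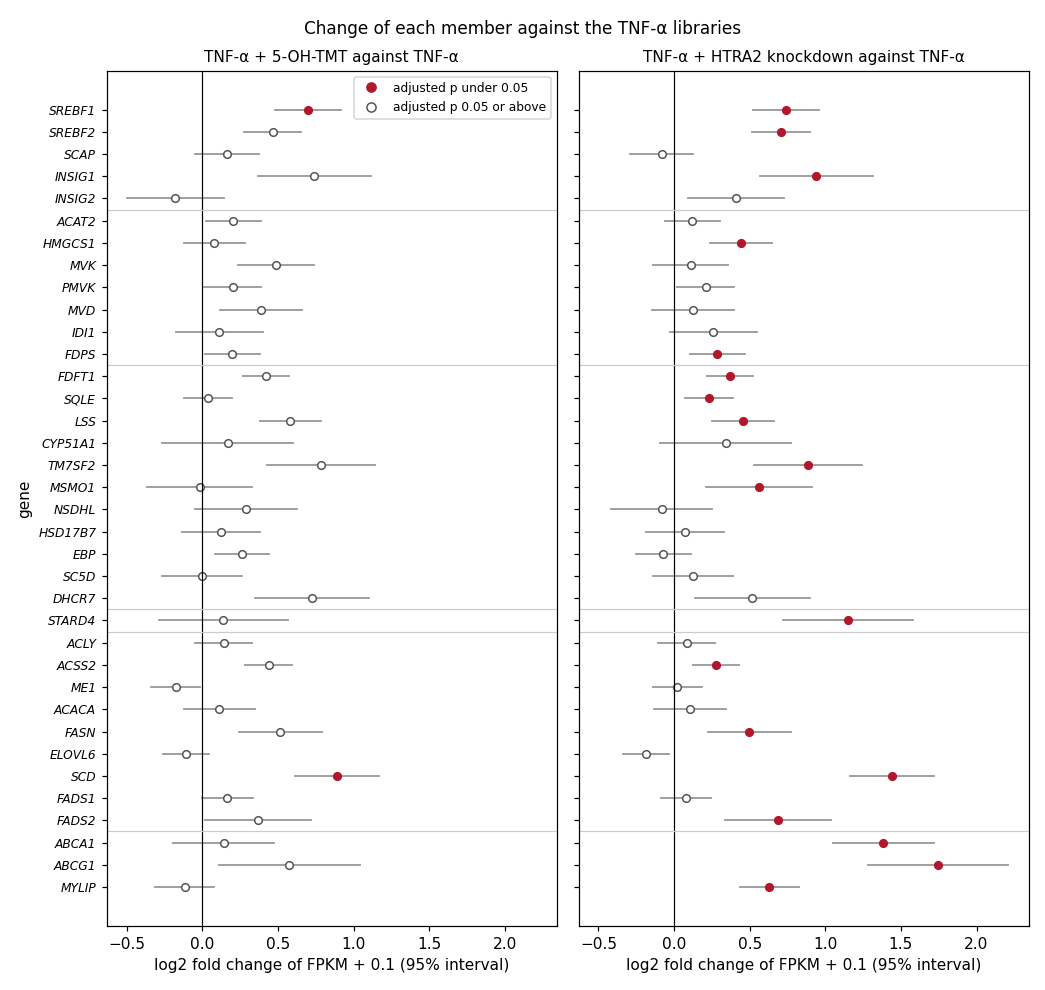
Log2 fold change of FPKM + 0.1 for each of the 36 genes, with its 95% interval from the limma fit, for 5-OH-TMT against TNF-α (left) and the knockdown against TNF-α (right). Filled points have an adjusted p under 0.05, 2 on the left and 18 on the right, all to the right of 0.

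The number of genes called with 5-OH-TMT depended on single libraries and on the fit. Without library 2 of the knockdown, a library outside this comparison that enters the shared estimate of the spread, 10 of 36 genes were called, all higher, beside 1.64% of all genes higher and 1.40% lower. Without library 2 of medium 6 were called, beside 0.304% of all genes higher and 0.166% lower. Without library 1 of medium the count was 1, beside 0.0387% and 0.00553%. Without library 1 of TNF-α it was 1, beside 0.0166% and 0%. Without any one of the other 8 libraries it was 0. In the fit to only the 6 libraries of the comparison 11 were called, all higher, beside 2.62% of all genes higher and 2.42% lower. The calls over all genes thus rose as well, from 7 to 551 without library 2 of the knockdown and to 911 in the fit to 6 libraries. In the knockdown against TNF-α, leaving out any of the 12 libraries gave 14 to 18, beside 6.56% to 10.3% of all genes higher and 4.39% to 9.18% lower. With TNF-α against medium the count was 0 without TNF-α library 2, beside 2.44% and 0.470%. It was 1 without medium library 3, beside 2.87% and 0.702%.

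The knockdown was compared directly with 5-OH-TMT, both under TNF-α, to see which genes differed between the treatments. Of the 36 genes, 8 were higher in the knockdown and 2 lower, beside 7.85% and 7.43% of all genes tested. Higher in the knockdown were ABCA1 (log2 fold change 1.24, adjusted p = 0.00041), ABCG1 (1.17, adjusted p = 0.0043), STARD4 (1.01, adjusted p = 0.0060), MYLIP (0.75, adjusted p = 0.00033), INSIG2 (0.59, adjusted p = 0.0202), MSMO1 (0.58, adjusted p = 0.0305), SCD (0.55, adjusted p = 0.0139) and HMGCS1 (0.36, adjusted p = 0.0236). Lower in the knockdown were MVK (-0.38, adjusted p = 0.0447) and EBP, a sterol isomerase (-0.33, adjusted p = 0.0204). EBP had 28.2, 29.7 and 27.7 FPKM with 5-OH-TMT and 22.4, 20.53 and 25.2 in the knockdown, without overlap. ABCA1, ABCG1, MYLIP and STARD4 kept the call in every setting and every fit without 1 library, whereas MVK kept it in 2 of those 12 fits, HMGCS1, MSMO1 and EBP in 8, INSIG2 in 9 and SCD in 11.

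Without library 2 of the knockdown, 5 genes were called in this comparison, all higher, beside 5.66% of all genes higher and 4.13% lower. Without library 1 of 5-OH-TMT 5 were called, beside 4.56% of all genes higher and 3.27% lower. Without library 2 of 5-OH-TMT 4 were called, beside 4.28% and 2.99%. In the fit to only these 6 libraries 5 were called, beside 5.94% and 4.74%. SREBF1 was not separated between the treatments, with a log2 difference between -0.18 and 0.26 at 95%. For FASN the interval was -0.29 to 0.26, for TM7SF2 -0.26 to 0.46 and for FDFT1 -0.20 to 0.10, so that differences of this size in either direction remain possible. COL1A1, a fibroblast marker, was also higher in the knockdown, by 1.07 against 5-OH-TMT (adjusted p = 0.00058) and by 1.23 against TNF-α (adjusted p = 0.00013), where its mean FPKM was 2.89 against 1.17 for TNF-α and 1.33 for 5-OH-TMT, while DCN and COL3A1 lay at or near 0. CD14, a monocyte marker, was higher by 1.41 in the knockdown against TNF-α (adjusted p = 0.0163), on 4 to 10 reads a library with TNF-α and 20 to 50 in the knockdown. Among the epithelial markers, CDH1 was higher by 0.40 (adjusted p = 0.0011) and KRT19 by 0.77 (adjusted p = 0.0044) in the knockdown against TNF-α. EPCAM, KRT8 and KRT18 were not called there. The part of these markers in the results was not tested.

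**Figure D4:**
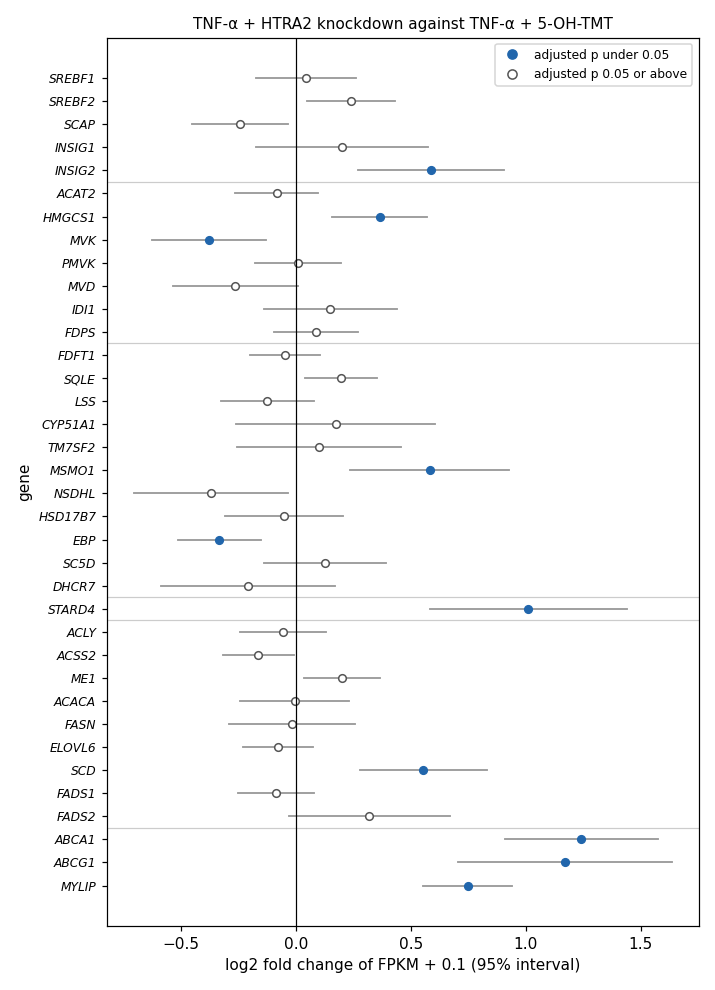
Log2 fold change of FPKM + 0.1 between the knockdown and 5-OH-TMT libraries, both with TNF-α, for the 36 genes with 95% intervals. Filled points have an adjusted p under 0.05, and the 3 LXR targets and STARD4 lie farthest to the right, toward higher values in the knockdown.

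Against untreated medium, cells given TNF-α with 5-OH-TMT had 5 of the 36 genes higher and 1 lower, beside 4.99% and 1.56% of all genes. LSS rose by 0.50 (adjusted p = 0.0060), SREBF2 by 0.41 (adjusted p = 0.0141), ACSS2 by 0.41 (adjusted p = 0.0037) and SQLE by 0.40 (adjusted p = 0.0052). The calls for LSS and SREBF2 were lost in the fit to only these 6 libraries, and that for SREBF2 also without library 1 or 3 of medium or of 5-OH-TMT. SCD rose by 0.47 (adjusted p = 0.0497), a call kept in 3 of 11 settings and 3 of 12 fits without 1 library. ELOVL6 fell by 0.41 (adjusted p = 0.0035), from 7.62 ± 0.316 to 5.70 ± 0.205 FPKM (SD, 3 libraries each). In the fit to only these 6 libraries 3 of the 36 were called, beside 3.6% of all genes higher and 0.819% lower. Leaving out 1 library gave 4 to 8, beside 2.88% to 6.02% of all genes higher and 0.465% to 3.04% lower.

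Another 55 genes of the same pathways were read from lists chosen for their roles, and 51 of them passed the filter. In the knockdown against TNF-α, 11 rose and 4 fell, beside 9.35% and 8.08% of all genes. The median of the 51 was 0.12 and their lowest log2 fold change was -0.56. When library 2 of the knockdown was left out, 14 rose and 6 fell, beside 10.2% and 8.21% of all genes. The largest changes were those of STARD5, a sterol carrier (log2 fold change 1.46, adjusted p = 9.8e-05), SMPDL3A, an LXR-regulated phosphodiesterase (0.97, adjusted p = 0.0048), and the acyl-CoA synthetases ACSL5 (0.81, adjusted p = 0.0106) and ACSL3 (0.66, adjusted p = 0.0025). STARD5 had FPKM values of 0.383, 0.304 and 0.440 with TNF-α, 0.596, 0.519 and 0.539 with 5-OH-TMT, and 1.26, 1.25 and 1.09 in the knockdown. ACSL3 had 19.8, 16.6 and 18.8 with TNF-α, 18.5, 17.1 and 18.2 with 5-OH-TMT, and 28.7, 33.6 and 25.2 in the knockdown. In STARD5 and ACSL3 the knockdown libraries lay above all others.

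By list, 3 of 12 other isoprenoid, sterol and transport genes rose in the knockdown against TNF-α and 1 fell. For this and the next lists, the shares over all genes were 9.35% and 8.08%. Of 24 other fatty acid and glycerolipid genes 6 rose and 2 fell, of 9 genes of SREBP processing and sterol sensing 1 rose and 1 fell, and of 6 LXR genes and further LXR targets 1 rose. In the same order, these counts were 4 and 2, 6 and 3, 1 and 1, and 3 and 0 without library 2 of the knockdown. The shares over all genes were then 10.2% and 8.21%. With 5-OH-TMT against TNF-α, 0 of the 51 were called by limma. At an unadjusted p under 0.05, 11 were higher and 12 lower, beside 9.6% and 10.5% of all genes. Without library 2 of the knockdown 2 were called higher and 3 lower, beside 1.64% and 1.4% of all genes. With TNF-α against medium 0 of the 51 were called by limma, with 4 higher and 5 lower at an unadjusted p under 0.05, beside 8.87% and 5.92% of all genes. With 5-OH-TMT against medium, ACSL5 rose by 0.83 (adjusted p = 0.0199) and TMEM97, a sterol-regulated membrane protein, fell by 0.42 (adjusted p = 0.0144). In the knockdown against 5-OH-TMT, 11 were higher and 3 lower, beside 7.85% and 7.43% of all genes, with STARD5 higher by 0.996 (adjusted p = 0.0019). The counts were 7 and 1 without library 2 of the knockdown, beside 5.66% and 4.13% of all genes.

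For 5 of the 36 genes, over 10% of the exon bases are shared with exons of other genes, and the sources do not state whether reads were counted by strand. The share is 83.2% for CYP51A1, 52.3% for ACAT2, 18.6% for FDPS, 15.0% for HMGCS1 and 14.8% for IDI1. For CYP51A1, 2 of the overlapping genes lie on the same strand, so counting by strand would not separate them. The values of these 5 genes are uncertain by an amount that was not estimated.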

How the data were processed

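Total RNA of NCM460 cells was made into poly(A)-selected libraries, and the authors deposited 1 table of FPKM per gene for the 12 libraries, with the gene lengths used. The submitters' processing notes name CASAVA 1.8, HISAT2 2.0.4, HTSeq 0.9.1 and hg38, and the scaling behind the FPKM is not given in the sources used here. Of the genes, 99.9% had GENCODE 29 coordinates, including all 36 described. Whole reads were recovered from the FPKM, with 100% of values within 0.1 of a whole number, and gave the depths. Reads are not independent molecules, so they bear on counting error only.

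Log2(FPKM + 0.1) of 18079 genes, those whose mean FPKM reached 0.1, was fitted in R 4.3.3 with limma 3.58.1 (eBayes with trend, 8 residual degrees of freedom, 1 mean per group, two-sided, Benjamini-Hochberg adjustment over all genes tested). The fit was tested on simulated data. The 36 genes, the further lists and the comparisons were chosen with earlier results of these data known. An item of the further lists is not reported here. Fold changes are given for genes with an adjusted p under 0.05, and otherwise levels. Of the further genes, at most 4 a comparison were named, by size of change, among those called and without overlap of the groups. The alternatives were pseudocounts of 1 and 0.01, 2 other filters, 3 rescalings, a fit to the 2 groups compared, no trend, a replicate block, voom on recovered reads, and each library left out. Counts of further genes, of genes without overlap and of genes past the 2-fold cutoff without library 2 of the knockdown were added after seeing the data. A log2(FPKM + 0.1) fold change understates changes of low genes.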

Additional observations from a re-analysis of the deposited data

How the results depend on the processing

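The count of called genes among the 36 was stable for the knockdown against TNF-α, at 14 to 18 over all settings and left-out libraries. The shares over all genes ran from 4.78% to 13.5% higher and from 3.45% to 14.4% lower. With 5-OH-TMT against TNF-α the 2 calls became 0 with a pseudocount of 1, without a filter, without the trend or with a replicate block. There was 1 with quantile normalization, beside 0.0221% of all genes higher and 0% lower. With a filter at a mean FPKM of 1, which keeps 32 of the 36, there were 7, beside 0.697% and 0.438%. The fit to 2 groups gave 11, beside 2.62% and 2.42%, and voom 11, beside 0.769% and 0.537%. Leaving out a library gave 0 to 10, beside at most 1.64% and 1.40%. With TNF-α against medium the 3 calls became 5 with quantile normalization, 1 in the fit to 2 groups or with the replicate block and 7 with voom, and 0 to 4 when a library was left out. In the fit to 2 groups, 5-OH-TMT against medium had 3 in place of 6, beside 3.6% of all genes higher and 0.819% lower. The knockdown against 5-OH-TMT had 5 in place of 10 in that fit, beside 5.94% and 4.74%. Leaving out a library gave 4 to 8 in the first, beside 2.88% to 6.02% higher and 0.465% to 3.04% lower. It gave 4 to 11 in the second, beside 4.28% to 9.08% and 2.99% to 8.7%. The replicate block left 16 calls in the knockdown against TNF-α, beside 8.25% of all genes higher and 6.46% lower. It left 5 in 5-OH-TMT against medium, beside 3.99% and 0.929%, and 8 in the knockdown against 5-OH-TMT, beside 6.16% and 5.24%. Same-numbered libraries had correlations of deviations from -0.37 to 0.15 over 18 pairs, and differently numbered ones from -0.21 to 0.35 over 36. Above 0.1 lay 5 of the 18 and 7 of the 36. Whether the numbers pair the libraries could not be settled, since the ranges overlap and rest on 3 libraries a group. No called gene changed direction in any setting. Over all genes tested, 5-OH-TMT against TNF-α gave 7 calls, and 1 to 911 under other settings. TNF-α against medium gave 742, or 392 in the fit to 2 groups. Rescaling to the same sum moved the share of higher calls in the knockdown from 53.6% to 63.5% against TNF-α and from 51.4% to 63.2% against 5-OH-TMT, and shifted the median of all genes by at most 0.076. The causes of these differences were not tested. Precision is set by 3 libraries a group.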
